A study of Mus musculus with 22 samples.

Results

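The genes described here are 10 proteases of the endolysosome, chosen by name but with earlier results of these data known. They are the aspartic cathepsins *Ctsd* and *Ctse*, the cysteine cathepsins *Ctsb*, *Ctsc*, *Ctsh*, *Ctsk*, *Ctsl*, *Ctss* and *Ctsz*, and legumain (*Lgmn*). They are 10 of the 34047 genes counted in bulk RNA-seq of mouse dendritic cells (DCs). To them were added the 102 of 177956 ATAC-seq windows that lie closest to these genes, at most 50000 bases away. ATAC-seq counts DNA cut by a transposase where chromatin is open, and each window is 150 bases centred on a summit of that signal. The 102 windows fall in 45 peaks, so that neighbouring windows can overlap and share reads.

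Cathepsins and legumain are made as inactive precursors, sorted to endosomes and lysosomes, and activated there at acidic pH. In DCs they cut endocytosed proteins into peptides for MHC class II and remove the invariant chain, the chaperone that fills the class II groove until a peptide replaces it. Cathepsin S makes the late cuts of the invariant chain in DCs, cathepsin L does so in the cortical epithelium of the thymus, and legumain cuts after asparagine and processes several cathepsins. Cystatins inhibit the cysteine members, and factors of the MiT/TFE family drive lysosomal genes through CLEAR elements, a form of E-box.

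RNA was sequenced from 3 sorted subsets of conventional DCs (cDCs) in 2 tissues. Spleen gave 3 libraries of each subset: cDC1s, and cDC2s without (T-bet-) or with (T-bet+) the transcription factor T-bet. Mesenteric lymph node (MLN) gave 7: 3 of cDC1s, 2 of T-bet- and 2 of T-bet+ cDC2s. ATAC-seq covered the spleen subsets only, with 2 libraries each. All groups were sorted from naive Tbx21RFP-cre mice of 6 to 10 weeks, homozygous for a knock-in that places a red fluorescent protein (RFP) and Cre under the T-bet gene *Tbx21*, so every library carries this allele. Cells were sorted as CD11c+ MHCII+ cells without CD64, Ly6C or lineage markers, then as XCR1+ CD11b- cDC1s, or as CD11b+ XCR1- cDC2s split by the reporter into RFP+ (T-bet+) and RFP- (T-bet-) cells, so a cell counts as T-bet+ by RFP protein and not by its own RNA. For RNA, cells of more than 1 mouse were pooled, while the study's ATAC-seq methods do not mention pooling. The labels do not tie a library to an animal. The p-values below therefore measure the spread between these libraries, part of which may be technical.

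RNA libraries held 20993220 to 29006549 counts and ATAC libraries 7270164 to 10081555 counts in windows. Summed marker genes separated the subsets as labelled. RNA levels are given as CPM, that is, counts scaled to a common library size after TMM normalisation. The 6 cDC1 genes summed to 5170 to 6064 CPM in spleen cDC1s and to at most 583 in spleen cDC2s, and the 6 cDC2 genes to 1363 to 3021 CPM in spleen cDC2s and at most 32.17 in cDC1s. Of the cDC1 genes *Batf3* did not separate them, with means of 115.8 CPM in spleen cDC1s and 116.3 in T-bet+ cDC2s. In MLN the cDC1 genes summed to 3024 to 5549 CPM in cDC1s and at most 637.2 in cDC2s, and the cDC2 genes to 478.7 to 1070 in cDC2s and at most 52.53 in cDC1s. *Tbx21* and the Notch target *Dtx1* summed to 321 to 349 CPM in spleen T-bet+ cDC2s and at most 10.98 in T-bet- cDC2s. In MLN they were at 17.63 and 38.72 CPM in T-bet+ cDC2s against 2.98 and 3.512. The 11 macrophage markers summed to 1003 to 1393 CPM in spleen T-bet- cDC2s, 440.7 to 524.9 in T-bet+ cDC2s and 111.1 to 204.7 in cDC1s. In MLN these sums were 1387 and 2408, 391.3 and 400.5, and 79.67 to 210.0 CPM. None of the 11 was at 0 in every library of a group. *C1qa* was at 134.6 to 202.4 CPM in spleen T-bet- cDC2s and 11.25 to 18.46 in T-bet+ cDC2s, whereas *Adgre1* overlapped between these subsets, at 329.4 to 542.9 and 345 to 410.9. The 5 monocyte markers summed to 125.8 to 354.7 CPM in spleen T-bet- cDC2s, 5.472 to 9.211 in T-bet+ cDC2s and 32.09 to 79.87 in cDC1s, where *Vcan* was at 0. The 4 neutrophil markers summed to 156 to 163.7, 40.96 to 55.97 and 12.11 to 19.42 CPM in the same order. The macrophage and neutrophil sums thus had the same order over the spleen subsets as the summed proteases below, whereas the monocyte sum was lower in T-bet+ cDC2s than in cDC1s. Single macrophage markers did not all follow their sum. *Timd4* had the opposite order, at 1.606 to 4.218 CPM in T-bet- cDC2s, 5.742 to 6.559 in T-bet+ cDC2s and 6.828 to 8.802 in cDC1s. *Vcam1* was lower in T-bet+ cDC2s (29.07 to 30.32 CPM) than in cDC1s (66.22 to 157.1). Of 3 neutrophil markers in the edgeR test described below, 1 was called lower and 0 higher in spleen T-bet+ than in T-bet- cDC2s, beside 5.38% of all genes called. Their median log2 fold change was -0.11, so the difference in this sum was not shared by all of them. The part of these markers in the results was not tested. GC content was taken, for each gene, as that of the 100-base stretch of its longest transcript that was richest in G and C. The deviation of a library from the mean of all 16 was correlated by rank with this value. The correlation was 0.207 to 0.34 in the 3 spleen T-bet+ libraries, spleen cDC1 replicates 1 and 2 and spleen T-bet- replicate 3. It was -0.404 to 0.0433 in the other 10. These sets are called the GC classes of the libraries. In bulk RNA, fewer cells of a type and less RNA per cell cannot be told apart.

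Summed over the 10 genes, RNA was least abundant in spleen cDC1s and most abundant in T-bet- cDC2s. The sum took 0.318% to 0.37% of counts in spleen cDC1s, 0.602% to 0.621% in T-bet+ cDC2s and 0.814% to 1.04% in T-bet- cDC2s, without overlap between the subsets. In MLN the shares were 0.397% to 0.7%, 0.686% and 0.918%, and 0.868% and 1.16%, and here T-bet+ cDC2s overlapped both other subsets. Mean summed levels were 3516 ± 365 CPM (SD, n = 3) in spleen cDC1s, 6232 ± 181 (n = 3) in T-bet+ cDC2s and 9801 ± 1347 (n = 3) in T-bet- cDC2s. No p is given for these sums.

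Levels of different genes were compared per kilobase of merged exons. *Ctsz*, a carboxypeptidase, and *Ctss* were the most abundant in every group by this measure. In spleen cDC1s they were level, at means of 473.7 and 473.6 CPM per kilobase. In spleen T-bet- cDC2s *Ctss* stood above *Ctsz*, at 1835 against 1004 CPM per kilobase, with no overlap between libraries. The order was the opposite in spleen T-bet+ cDC2s, with *Ctsz* at 1111 and *Ctss* at 875.7 CPM per kilobase, again without overlap. Next came *Ctsb* in cDC1s of both tissues and *Ctsh* in all 4 groups of cDC2s. In spleen T-bet- cDC2s the libraries of *Ctsh*, *Ctsc*, *Ctsb* and *Lgmn*, at means of 350.6, 321.5, 272.1 and 222.9 CPM per kilobase, overlapped between neighbours in this order. *Ctsd* followed at 84.47, and *Ctsl*, *Ctse* and *Ctsk* lay below 10 CPM per kilobase in every group. *Ctsd* shares exon bases with a protein-coding gene on the same strand. How reads there were counted is not given in the sources used here, so the rank of *Ctsd* carries this limit.

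**Figure D1:**
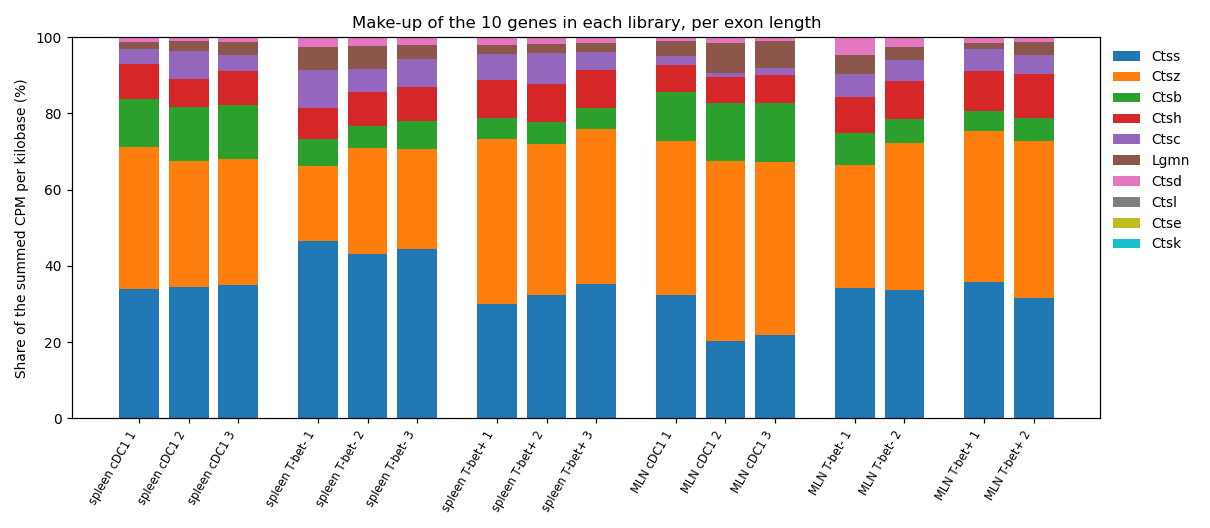
Share of each of the 10 genes in their summed CPM per kilobase of exon, in percent, with 1 stacked bar for each of the 16 RNA libraries. *Ctss* made up 43.2% to 46.6% in spleen T-bet- cDC2s and 29.9% to 35.2% in spleen T-bet+ cDC2s, and *Ctsz* 19.7% to 27.8% and 39.5% to 43.3%.

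The composition of the pool therefore differed as well as its size. As shares of the summed level per kilobase, *Ctsb* made up 12.7% to 14.1% in spleen cDC1s and 5.56% to 7.33% in the 6 spleen cDC2 libraries. *Ctsc* made up 1.08% to 2.34% in MLN cDC1s, 3.81% to 7.19% in spleen cDC1s and 4.83% to 10.1% in the 10 cDC2 libraries, so that spleen cDC1s overlapped the cDC2s.

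Subsets were compared with edgeR's quasi-likelihood test, fitted within each tissue over all genes kept by a filter on low counts, and a gene was called at a Benjamini-Hochberg adjusted p under 0.05. *Ctsk* had at most 22 counts in any library and did not pass the filter in spleen, so 9 genes were tested. Between T-bet+ and T-bet- cDC2s of spleen, 3 of the 9 were called, all lower in T-bet+ cDC2s (*Ctsb*, *Ctss* and *Lgmn*). Without any 1 of the 3 T-bet+ libraries, 1 of these calls, that of *Ctss*, was left. Of all 14377 genes, 5.38% were called in that comparison in either direction. Against cDC1s 6 genes were higher and 1 lower in T-bet+ cDC2s, where 18.2% of all genes were called, and 8 were higher and none lower in T-bet- cDC2s, where 15.9% were called. The median log2 fold change of the 9 was 1.21 for T-bet+ cDC2s against cDC1s, beside 0.03 for all genes, and 1.99 for T-bet- cDC2s against cDC1s, beside -0.01. Both of these comparisons use the same cDC1 libraries. For T-bet+ against T-bet- cDC2s the median was -0.84, beside -0.01 for all genes.

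**Figure D2:**
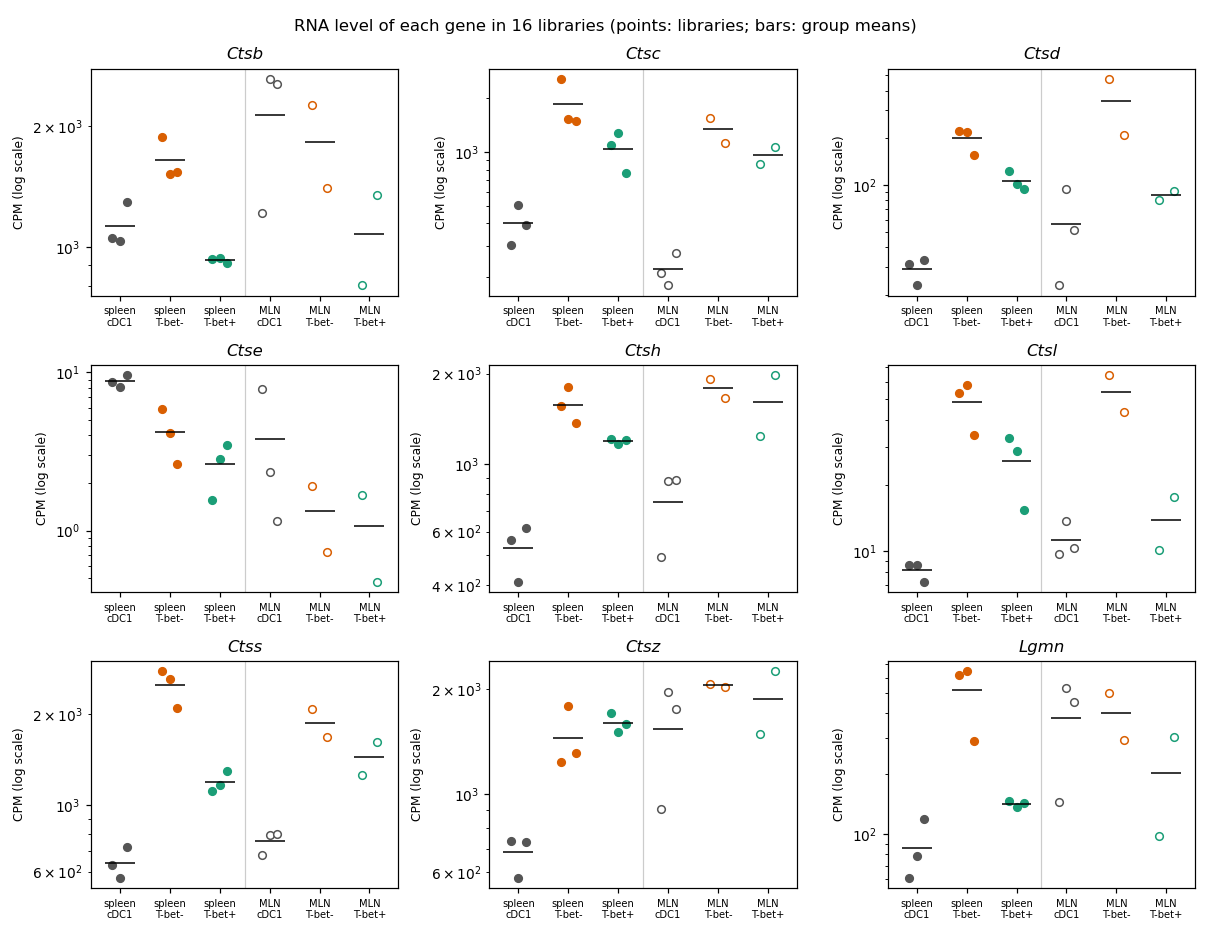
RNA level of each gene in CPM (log axis, 1 panel per gene), with 1 point per library and a bar at the mean of each of the 6 groups of subset and tissue. Spleen T-bet- cDC2s (2094 to 2766 CPM for *Ctss*) lay above spleen T-bet+ cDC2s (1110 to 1298) and cDC1s (572.4 to 725.0).

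Windows were tested the same way over 166547 windows kept, and were called at an adjusted p under 0.01 with a log2 fold change over 0.5 in size. Of the 102 windows near these genes 100 were kept. Between spleen T-bet+ and T-bet- cDC2s, 5 of the 100 (5%) were called, 2 higher and 3 lower, beside 6.28% of all windows. For T-bet+ cDC2s against cDC1s 21 (21%) were called, 14 higher and 7 lower, beside 23.0% of all windows. Among T-bet- cDC2s against cDC1s 24 (24%) were called, 12 in each direction, beside 17.9%. DESeq2 called 1, 17 and 13 in these comparisons, for which the share over all windows is not given here. The edgeR shares near the 10 genes thus lay close to those of the whole set, and nothing is read from any of these counts about these genes as a group.

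**Figure D3:**
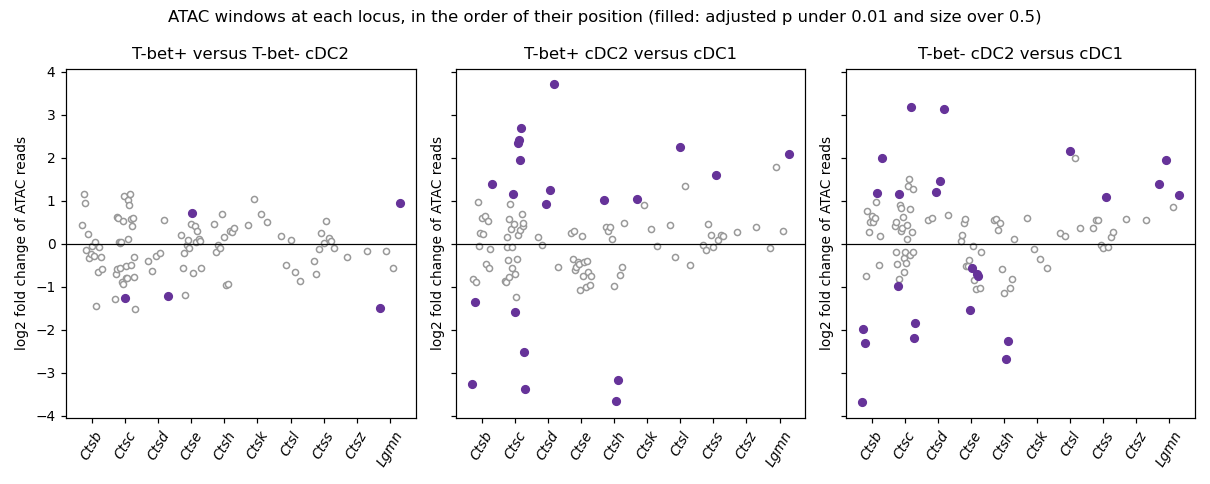
log2 fold change of ATAC reads in each of the 100 tested windows, grouped by gene and ordered within a gene by position, for the 3 comparisons of spleen subsets. Filled points passed both thresholds, and they number 5, 21 and 24.

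*Ctss*, the protease that frees class II molecules of the invariant chain in DCs, lies on chromosome 3 (chr3:95526786-95556403 in mm10, plus strand). In spleen its level was 2766, 2618 and 2094 CPM in T-bet- cDC2s, 1110, 1159 and 1298 CPM in T-bet+ cDC2s, and 632.1, 572.4 and 725.0 CPM in cDC1s. The 3 subsets formed 3 separate ranges. T-bet+ cDC2s were 2.11-fold lower than T-bet- cDC2s (log2 fold change -1.08, SE 0.17, adjusted p = 0.0062), a call that held in all 17 alternative settings of the fit. They were 1.89-fold higher than cDC1s (0.92, SE 0.17, adjusted p = 0.0040), and T-bet- cDC2s were 3.98-fold higher (1.99, SE 0.17, adjusted p = 5e-05).

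The 250 bases before the *Ctss* start (RefSeq promoter, GRCm38.p6, which is mm10) are shown because the gene is the most abundant per kilobase in spleen T-bet- cDC2s. Capitals mark matches to the interferon regulatory factor pattern AANNGAAA on either strand.

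Ctss promoter, chr3:95526536-95526785, plus strand: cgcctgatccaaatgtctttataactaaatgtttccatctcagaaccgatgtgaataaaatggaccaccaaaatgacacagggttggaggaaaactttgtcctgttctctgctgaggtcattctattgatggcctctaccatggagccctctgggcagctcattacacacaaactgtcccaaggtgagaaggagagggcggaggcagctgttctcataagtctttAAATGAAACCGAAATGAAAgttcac

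The window over the start itself, centred 24 bases downstream, was at 9.863 and 15.08 CPM in T-bet- cDC2s, 16.64 and 9.514 in the T-bet+ subset, and 11.88 and 10.71 in cDC1s. These ranges overlapped, and the window was not called in any comparison. The 1 called *Ctss* window is 2826 bases upstream, between genes (chr3:95523886-95524035). It had 15.88 and 10.77 CPM in T-bet+ cDC2s, 9.0 and 9.516 in the T-bet- subset, and 4.395 and 4.31 in cDC1s, and was higher than in cDC1s in T-bet+ cDC2s (log2 1.61, SE 0.28, adjusted p = 2.1e-06) and T-bet- cDC2s (1.09, SE 0.28, adjusted p = 0.0021). The second call was lost with DESeq2 and without any 1 of the 4 libraries compared (highest adjusted p = 0.027). Its sequence is shown as the *Ctss* window that separates cDC1s from cDC2s, and it holds none of the 9 patterns searched.

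Ctss, 2826 bases upstream, plus strand: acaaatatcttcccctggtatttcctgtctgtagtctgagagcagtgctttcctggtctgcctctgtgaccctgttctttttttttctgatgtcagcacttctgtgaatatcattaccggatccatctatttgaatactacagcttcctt

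*Lgmn*, on chromosome 12 (chr12:102394084-102439813, minus strand), encodes legumain. It had 617.7, 643.2 and 292.3 CPM in spleen T-bet- cDC2s, 145.8, 137.1 and 142.7 CPM in T-bet+ cDC2s, and 60.97, 77.99 and 119.1 CPM in cDC1s. Again the 3 ranges did not overlap, although replicate 3 of the T-bet- cDC2s lay well below the other 2. T-bet+ cDC2s were 3.68-fold lower than T-bet- cDC2s (log2 fold change -1.88, SE 0.33, adjusted p = 0.012), the largest difference among the 9 genes. This call was lost without any 1 of the 3 T-bet+ libraries (adjusted p = 0.057 to 0.063), and with the GC class of the libraries as a term the log2 fold change was -1.18. T-bet- cDC2s were 6.22-fold higher than cDC1s (2.64, SE 0.34, adjusted p = 0.0007), while T-bet+ cDC2s and cDC1s did not differ beyond the threshold (0.76, SE 0.32, adjusted p = 0.15), except with the GC class as a term (1.10, adjusted p = 0.0016).

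Of the 4 *Lgmn* windows, 2 differed between the cDC2 subsets, in opposite directions. In an exon, 45192 bases downstream of the start (chr12:102394547-102394696), T-bet- cDC2s had 7.397 and 7.39 CPM, T-bet+ cDC2s 3.59 and 1.673, and cDC1s 3.207 and 2.351. The T-bet+ libraries were lower than the T-bet- libraries (log2 -1.49, SE 0.34, adjusted p = 0.0014), as they were in RNA. The window 3060 bases upstream had 17.08 and 15.16 CPM in T-bet+ cDC2s, 7.397 and 9.212 in the T-bet- subset, and 4.633 and 2.873 in cDC1s. It was higher in T-bet+ cDC2s (0.95, SE 0.25, adjusted p = 0.005), opposite to the RNA. The exon call was lost without T-bet+ replicate 2 (adjusted p = 0.074) or T-bet- replicate 1, and the upstream one without T-bet+ replicate 1 (0.042), T-bet- replicate 1 (0.11) or T-bet- replicate 2 (0.02). Both were lost with DESeq2 (0.025 and 0.032). An intronic window 23383 bases downstream, with 0.4752 and 0.653 CPM in cDC1s and 1.973 and 2.43 in T-bet- cDC2s, was higher in the latter (1.95, SE 0.56, adjusted p = 0.0056), a call lost with DESeq2 and without any 1 of these 4 libraries (highest adjusted p = 0.074). Against cDC1s the upstream window was higher in T-bet+ cDC2s in all 11 alternatives (2.09, SE 0.28, adjusted p = 3.6e-09). The window is shown for this opposite direction, with its match to the C/EBP pattern TTGCNNAA in capitals.

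Lgmn, 3060 bases upstream (chr12:102442799-102442948), plus strand: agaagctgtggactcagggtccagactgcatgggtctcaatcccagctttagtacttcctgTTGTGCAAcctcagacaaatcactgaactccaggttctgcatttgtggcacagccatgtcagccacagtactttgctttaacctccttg

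*Ctsb* (chr14:63122462-63145923, plus strand) encodes cathepsin B, an endopeptidase that also trims peptides from their carboxyl end. Spleen T-bet- cDC2s had 1879, 1520 and 1540 CPM, T-bet+ cDC2s 931.3, 936.8 and 913.0, and cDC1s 1053, 1037 and 1293. Here T-bet+ cDC2s, rather than cDC1s, were lowest. They were 1.79-fold lower than T-bet- cDC2s (log2 fold change -0.84, SE 0.15, adjusted p = 0.013) and did not differ from cDC1s beyond the threshold (-0.25, SE 0.15, adjusted p = 0.31). T-bet- cDC2s were 1.5-fold higher than cDC1s (0.58, SE 0.15, adjusted p = 0.029). That call held in 6 of 17 alternatives, with adjusted p up to 0.15, and was lost without any 1 of 7 libraries: cDC1 replicate 1 or 2, T-bet- replicate 1 or 2, or any T-bet+ replicate (0.054 to 0.14). Leaving out any 1 of the 3 spleen T-bet+ libraries took the adjusted p of *Ctsb* against T-bet- cDC2s to 0.066 to 0.068, and that call was lost. *Fdft1* lies on the opposite strand and shares 774 exon bases with *Ctsb*, and whether counting used strand is not given in the sources used here.

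Windows at *Ctsb* moved in both directions between cDC1s and cDC2s. Upstream by 11344 bases, cDC1s had 8.79 and 8.75 CPM, T-bet- cDC2s 0.7397 and 0.6074, and T-bet+ cDC2s 0.3263 and 1.464. The difference from cDC1s was log2 -3.69 (SE 0.45, adjusted p = 4.5e-10) in T-bet- cDC2s and -3.26 (SE 0.42, adjusted p = 1.7e-09) in T-bet+ cDC2s. In an intron 9969 bases downstream of the start the order was turned round, with 17.38 and 16.4 CPM in T-bet- cDC2s, 12.73 and 9.619 in the T-bet+ subset, and 4.514 and 3.918 in cDC1s. The intronic window was higher than in cDC1s by log2 1.99 (SE 0.27, adjusted p = 6.3e-09) and by 1.40 (SE 0.27, adjusted p = 2.3e-05). All 4 calls held in all 11 alternatives. Upstream by 5256 bases, where cDC1s had 5.702 and 5.354 CPM, T-bet- cDC2s were lower with 0.7397 and 1.417 (-2.31, SE 0.43, adjusted p = 1.8e-05). T-bet+ cDC2s had 3.046 and 1.255 (-1.36, SE 0.39, adjusted p = 0.0039), a call lost with DESeq2 and without either cDC1 library or T-bet+ replicate 2 (highest adjusted p = 0.15). The pair of sequences with the largest changes is shown for this contrast. Capitals in the second mark the patterns of C/EBP (TTGCNNAA), AP-1 (TGANTCA) and Runx (TGTGGTT), and the first holds none of the 9 patterns.

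Ctsb, 11344 bases upstream (chr14:63111044-63111193), plus strand: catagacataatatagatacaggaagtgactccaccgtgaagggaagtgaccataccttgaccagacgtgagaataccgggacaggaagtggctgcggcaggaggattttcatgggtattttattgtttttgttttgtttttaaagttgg
Ctsb, 9969 bases downstream in an intron (chr14:63132357-63132506), plus strand: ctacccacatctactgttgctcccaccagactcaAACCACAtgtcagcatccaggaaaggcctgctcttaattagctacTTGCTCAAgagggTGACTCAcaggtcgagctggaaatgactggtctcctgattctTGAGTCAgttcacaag

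The window over the *Ctsb* start had 28.23 and 26.83 CPM in T-bet- cDC2s, 21.32 and 24.99 in the T-bet+ subset, and 19.01 and 19.85 in cDC1s. It was not called in any comparison (smallest adjusted p = 0.04, where 0.01 was needed). The 87 bases of it that precede the gene hold the CLEAR element TCACGTGA, which is the letters of the E-box CACGTG with 1 added base on each side, and are shown for that match.

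Ctsb, start window before the gene (chr14:63122375-63122461), plus strand: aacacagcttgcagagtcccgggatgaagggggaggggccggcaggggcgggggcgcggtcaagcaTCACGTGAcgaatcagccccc

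*Ctsl* (chr13:64359337-64370890, minus strand), which takes the place of *Ctss* in thymic epithelium, was scarce in all libraries. Spleen T-bet- cDC2s had 52.89, 58.13 and 33.98 CPM, T-bet+ cDC2s 33.15, 28.85 and 15.49, and cDC1s 8.602, 8.634 and 7.233. All cDC2 libraries lay above all cDC1 libraries. T-bet- cDC2s were 6.07-fold higher than cDC1s (log2 fold change 2.60, SE 0.35, adjusted p = 0.00087) and T-bet+ cDC2s 3.22-fold higher (1.69, SE 0.34, adjusted p = 0.0071). The difference between the cDC2 subsets did not pass the test (-0.91, SE 0.33, adjusted p = 0.17). An antisense gene that was not counted here shares exon bases with *Ctsl*, and so does a processed pseudogene on the same strand. A window 4953 bases upstream (chr13:64375769-64375918) followed the RNA, with 4.069 and 4.859 CPM in T-bet- cDC2s, 4.351 and 5.228 in the T-bet+ subset, and 1.069 and 0.9142 in cDC1s. It was higher than in cDC1s by log2 2.16 (SE 0.43, adjusted p = 6.3e-05) and by 2.25 (SE 0.43, adjusted p = 1.7e-05), in all 11 alternatives. The sequence is shown with its match to TAGGTCA, the element bound by ROR receptors, in capitals.

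Ctsl, 4953 bases upstream, plus strand: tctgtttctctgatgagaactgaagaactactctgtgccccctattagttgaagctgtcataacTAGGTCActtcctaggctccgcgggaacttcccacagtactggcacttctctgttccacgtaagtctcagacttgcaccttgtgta

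*Ctsd* (chr7:142375911-142388038, minus strand) encodes the main aspartic protease of lysosomes. Its level was 222.3, 217.2 and 156.3 CPM in spleen T-bet- cDC2s, 122.1, 101.1 and 94.8 in the T-bet+ subset, and 31.53, 22.91 and 33.38 in cDC1s. The 3 subsets again formed 3 separate ranges. *Ctsd* was 6.97-fold higher than in cDC1s in T-bet- cDC2s (log2 fold change 2.80, SE 0.24, adjusted p = 5.6e-05), the largest such difference among the 9 genes, and 3.70-fold higher in T-bet+ cDC2s (1.89, SE 0.24, adjusted p = 0.0005). The difference between the cDC2 subsets lay just short of the threshold (-0.91, SE 0.23, adjusted p = 0.051). It passed in 3 of 17 alternatives (DESeq2, without cDC1 replicate 2 and without T-bet- replicate 3), with adjusted p from 0.015 to 0.19 over the 17. The exon overlap of *Ctsd* given above may bear on these levels too, which was not tested.

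The largest gain in open chromatin in T-bet+ cDC2s over cDC1s at any of the 10 genes was 8707 bases upstream of *Ctsd* (chr7:142396671-142396820). This window had 22.84 and 19.76 CPM in T-bet+ cDC2s, 13.19 and 15.59 in the T-bet- subset, and 1.782 and 1.437 in cDC1s. It was higher than in cDC1s by log2 3.71 (SE 0.30, adjusted p = 4.3e-17) and by 3.15 (SE 0.31, adjusted p = 2.3e-13), in all 11 alternatives. Between the cDC2 subsets it did not pass the test (0.56, SE 0.22, adjusted p = 0.083). A second window, 6410 bases upstream, was also higher in both (1.25 and 1.47), while at 10137 bases upstream T-bet+ libraries were lower than T-bet- libraries (-1.21, SE 0.32, adjusted p = 0.0064). In that last window T-bet- cDC2s had 5.178 and 10.73 CPM and T-bet+ cDC2s 3.155 and 3.764, and without T-bet- replicate 2 the adjusted p rose to 0.49. The call was also lost without either T-bet+ replicate. The window 8707 bases upstream is shown with its match to the Runx pattern TGTGGTT in capitals.

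Ctsd, 8707 bases upstream, plus strand: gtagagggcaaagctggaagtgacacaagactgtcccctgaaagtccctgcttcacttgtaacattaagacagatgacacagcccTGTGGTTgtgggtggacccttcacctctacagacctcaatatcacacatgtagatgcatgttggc

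*Ctse* (chr1:131638306-131675505, plus strand), the endosomal aspartic protease, was the only gene of the 9 with its highest spleen level in cDC1s. They had 8.642, 8.061 and 9.61 CPM, T-bet- cDC2s 5.877, 4.134 and 2.651, and T-bet+ cDC2s 1.563, 2.832 and 3.47. The T-bet+ subset was 3.27-fold lower than cDC1s (log2 fold change -1.71, SE 0.41, adjusted p = 0.016), which became 0.061 without T-bet+ replicate 1 and 0.053 without replicate 2. T-bet- cDC2s did not differ from cDC1s beyond the threshold (-1.02, SE 0.40, adjusted p = 0.12). The window at the start, 39 bases upstream, had 4.158 and 4.832 CPM in cDC1s, 4.562 and 4.758 in T-bet- cDC2s and 7.179 and 3.555 in T-bet+ cDC2s, and was not called. In an exon 34281 bases downstream, 48.47 and 39.7 CPM in cDC1s stood beside 32.67 and 27.54 in T-bet- cDC2s and 54.28 and 45.27 in T-bet+ cDC2s. The T-bet+ libraries were higher here than the T-bet- libraries (0.73, SE 0.17, adjusted p = 0.0013), while the RNA difference between them was not called (-0.70, SE 0.40, adjusted p = 0.4). Without T-bet+ replicate 1 or T-bet- replicate 2 the call was lost (highest adjusted p = 0.065). Nearby, 33899 bases downstream, cDC1s had 4.395 and 5.354 CPM and T-bet- cDC2s 1.726 and 1.62 (-1.54, SE 0.40, adjusted p = 0.002), and beyond the gene, 41547 bases downstream, 21.98 and 21.42 against 11.96 and 13.77 (-0.75, SE 0.21, adjusted p = 0.0044). Both windows were lower in the T-bet- subset, and both calls were lost with DESeq2 and without cDC1 replicate 2 or either T-bet- library, the second also without cDC1 replicate 1 (highest adjusted p = 0.081).

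*Ctsc* (chr7:88278085-88310888, plus strand) encodes the dipeptidyl peptidase that activates the serine proteases of granules. It had 2570, 1540 and 1492 CPM in spleen T-bet- cDC2s, 1097, 1277 and 762 in the T-bet+ subset, and 303.4, 509.1 and 391.2 in cDC1s. The ranges did not overlap. *Ctsc* was 4.77-fold higher than in cDC1s in T-bet- cDC2s (log2 fold change 2.25, SE 0.30, adjusted p = 0.00089) and 2.66-fold higher in T-bet+ cDC2s (1.41, SE 0.30, adjusted p = 0.009). The 2 cDC2 subsets did not differ beyond the threshold (-0.84, SE 0.29, adjusted p = 0.15).

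*Ctsc* has the most windows, 29 in 14 peaks, with calls in both directions. Against cDC1s, 5 of the 28 tested were higher and 3 lower in T-bet+ cDC2s (28.6% called, beside 23.0% of all windows). In T-bet- cDC2s 2 were higher and 3 lower (17.9%, beside 17.9%). A higher window, chosen after its values were seen, lies 18745 bases upstream. It had 4.351 and 5.96 CPM in T-bet+ cDC2s and 0.8315 and 1.175 in cDC1s (log2 2.36, SE 0.435, adjusted p = 9.1e-06). The pair with the largest loss in cDC2s lies in an intron, 25618 and 26563 bases downstream of the start. The first had 14.97 and 15.67 CPM in cDC1s, 2.959 and 3.644 in T-bet- cDC2s, and 2.719 and 2.614 in the T-bet+ subset. The second had 9.384 and 12.02 CPM, 2.959 and 2.936, and 0.8702 and 1.15 in the same order. Both were thus most open in the subset with the least *Ctsc* RNA. In T-bet+ cDC2s they were lower than in cDC1s by log2 -2.52 (SE 0.30, adjusted p = 1.1e-10) and by -3.38 (SE 0.38, adjusted p = 1.7e-11), and in T-bet- cDC2s by -2.2 (SE 0.29, adjusted p = 5.3e-09) and by -1.85 (SE 0.32, adjusted p = 4.3e-06), each in all 11 alternatives. The opposite direction was also seen 6941 bases downstream, where cDC1s had 0.2376 and 0.1306 CPM, T-bet- cDC2s 1.233 and 2.328, and T-bet+ cDC2s 0.6527 and 1.882. That difference was log2 3.18 (SE 0.79, adjusted p = 0.0012) in T-bet- cDC2s and 2.68 (SE 0.83, adjusted p = 0.0084) in T-bet+ cDC2s, from 1 to 23 reads a library. The first was lost without cDC1 replicate 2 (0.022) or T-bet- replicate 2 (0.063), and the second without any 1 of cDC1 replicate 1 or 2, T-bet+ replicate 2 or T-bet- replicate 2 (0.013 to 0.28). At 26411 bases upstream, T-bet+ cDC2s, with 1.849 and 2.718 CPM, were lower than T-bet- cDC2s, with 5.178 and 5.872 (-1.27, SE 0.35, adjusted p = 0.0082), a call lost without T-bet+ replicate 1 (0.12), T-bet- replicate 1 (0.026) or T-bet- replicate 2 (0.081). The intronic pair is shown because its direction is opposite to that of the RNA, with matches to AANNGAAA and, in the first, TAGGTCA in capitals.

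Ctsc, 25618 bases downstream in an intron (chr7:88303629-88303778), plus strand: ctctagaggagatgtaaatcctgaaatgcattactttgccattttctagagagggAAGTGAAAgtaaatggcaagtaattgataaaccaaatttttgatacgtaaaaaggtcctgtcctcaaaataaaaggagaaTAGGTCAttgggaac
Ctsc, 26563 bases downstream in an intron (chr7:88304574-88304723), plus strand: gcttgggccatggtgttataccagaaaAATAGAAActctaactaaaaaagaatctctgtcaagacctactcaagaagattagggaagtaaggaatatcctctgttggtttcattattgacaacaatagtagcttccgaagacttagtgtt

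*Ctsh* (chr9:90054152-90076089, plus strand), an aminopeptidase, had 1556, 1801 and 1376 CPM in spleen T-bet- cDC2s, 1211, 1168 and 1204 in the T-bet+ subset, and 563.3, 410.0 and 614.6 in cDC1s. It was 3.06-fold higher than in cDC1s in T-bet- cDC2s (log2 fold change 1.62, SE 0.19, adjusted p = 0.00035) and 2.31-fold higher in T-bet+ cDC2s (1.21, SE 0.18, adjusted p = 0.0017). All cDC2 libraries were above the cDC1 libraries, and the cDC2 subsets did not differ beyond the threshold (-0.41, SE 0.18, adjusted p = 0.27). The *Ctsh* windows with the largest changes went against the RNA, as did the intronic pair at *Ctsc*. Those 16029 and 16111 bases downstream of the start, which overlap and lie in 1 peak, had 4.752 to 7.966 CPM in cDC1s and at most 1.518 in the cDC2 libraries. The first was lower than in cDC1s by log2 -3.65 (SE 0.49, adjusted p = 4e-09) in T-bet+ cDC2s and -2.69 (SE 0.44, adjusted p = 9.8e-07) in T-bet- cDC2s, in all 11 alternatives. A window 5896 bases downstream, chosen after its values were seen, had 32.09 and 27.71 CPM in T-bet+ cDC2s and 14.37 and 15.28 in cDC1s (1.01, SE 0.20, adjusted p = 2e-05). Like the 2 overlapping windows, it lies within 2000 bases of the start of a *Ctsh* transcript other than that at the gene start. The first of the 2 overlapping windows is shown for the same reason as the *Ctsc* pair, with AANNGAAA in capitals.

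Ctsh, 16029 bases downstream (chr9:90070107-90070256), plus strand: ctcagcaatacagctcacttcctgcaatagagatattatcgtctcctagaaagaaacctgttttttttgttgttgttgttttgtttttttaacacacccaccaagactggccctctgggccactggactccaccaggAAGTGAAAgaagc

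*Ctsz* (chr2:174427493-174439039, minus strand) stood apart among the genes higher in cDC2s in that T-bet+ cDC2s were not the lower subset. It had 1239, 1785 and 1315 CPM in spleen T-bet- cDC2s, 1706, 1503 and 1592 in the T-bet+ subset, and 737.6, 577.8 and 732.5 in cDC1s. The cDC2 subsets overlapped (log2 fold change 0.14, SE 0.18, adjusted p = 0.74). Both were higher than cDC1s, T-bet+ cDC2s 2.39-fold (1.26, SE 0.19, adjusted p = 0.0015) and T-bet- cDC2s 2.18-fold (1.12, SE 0.19, adjusted p = 0.0031). Neither of its 2 windows was called.

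*Ctsk*, the collagenase of osteoclasts, was at or near 0. In spleen it had 0, 22 and 2 counts in T-bet- cDC2s, 0, 0 and 3 in cDC1s, and none in the 3 T-bet+ libraries. In MLN it had 0 and 14 counts in T-bet- cDC2s, 3, 13 and 0 in cDC1s, and none in the 2 T-bet+ libraries. A count of 0 allows up to 3 counts in a library, for counting error only, so no fold change is given. Where it passed the filter, in MLN and in the fit of both tissues, adjusted p was 0.34 to 1. A window 12740 bases downstream of the *Ctsk* start (27.74 and 13.91 CPM in T-bet+ cDC2s, 9.503 and 10.84 in cDC1s) was called higher (1.03, SE 0.23, adjusted p = 0.00028). Without T-bet+ replicate 1 or cDC1 replicate 1 this call was lost (highest adjusted p = 0.21).

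In MLN, with 2 libraries in each cDC2 group, the differences between the cDC2 subsets did not pass the test for any gene of the 9, and edgeR called none of the 15298 genes tested (0.0%). At an unadjusted p under 0.05 edgeR gave 2 of the 9, *Ctsd* and *Ctsl*, and 1444 of all genes. DESeq2 called 2 of the 9, and 328 genes in all. *Ctsl* had 10.14 and 17.67 CPM in MLN T-bet+ cDC2s and 64.2 and 43.62 in T-bet- cDC2s (log2 fold change -2.01, SE 0.38, adjusted p = 0.19). *Ctsd* had 80.23 and 91.9 CPM against 475.6 and 209.8 (-2.05, SE 0.64, adjusted p = 0.38). For both, the ranges did not overlap, and neither did those of *Ctsb*, *Ctsc* and *Ctss*. With 2 libraries on each side such a separation carries little weight, and the share of all genes that show it is not given. *Ctss*, which was lower in T-bet+ cDC2s in spleen, had 1258 and 1620 CPM against 2069 and 1672 in MLN (-0.42, SE 0.30, adjusted p = 0.74), *Lgmn* 98.0 and 303.8 against 503.2 and 293.4 (-1.05, SE 0.69, adjusted p = 0.71), and *Ctsb* 802.9 and 1349 against 2258 and 1399 (-0.82, SE 0.47, adjusted p = 0.66). The median over the 9 was -0.52, beside -0.02 for all genes.

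Against MLN cDC1s, 1 of the 9 was called in T-bet+ cDC2s, where 6.22% of all genes were called, and 4 in T-bet- cDC2s, where 5.79% were called, all higher. DESeq2 called 3 and 5, for which the share over all genes is not given here. *Ctsc* was called in both, with 862.6 and 1076 CPM in MLN T-bet+ cDC2s, 1552 and 1130 in the T-bet- subset, and 211.6, 180.5 and 273.5 in cDC1s (log2 fold changes 2.14, SE 0.31, adjusted p = 0.0077, and then 2.66, SE 0.31, adjusted p = 0.0036). It was the one gene of these 4 whose call in T-bet- cDC2s held in all 16 alternatives. *Ctsl* (2.33, SE 0.33, adjusted p = 0.0079) was lost without T-bet- replicate 1 (adjusted p = 0.079). *Ctsd*, at 22.99, 94.38 and 51.49 CPM in MLN cDC1s (2.69, SE 0.57, adjusted p = 0.032), was lost without cDC1 replicate 3 (0.12), T-bet- replicate 1 (0.28) or T-bet- replicate 2 (0.075). *Ctss*, at 681.0, 794.6 and 801.5 CPM in MLN cDC1s (1.36, SE 0.27, adjusted p = 0.026), was lost without any 1 of the 5 libraries compared, with adjusted p up to 0.19. *Ctsb* and *Lgmn*, which were higher in T-bet- cDC2s than in cDC1s of spleen, overlapped between these subsets in MLN (-0.14, SE 0.43, adjusted p = 0.9, and 0.17, SE 0.62, adjusted p = 0.93).

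**Figure D4:**
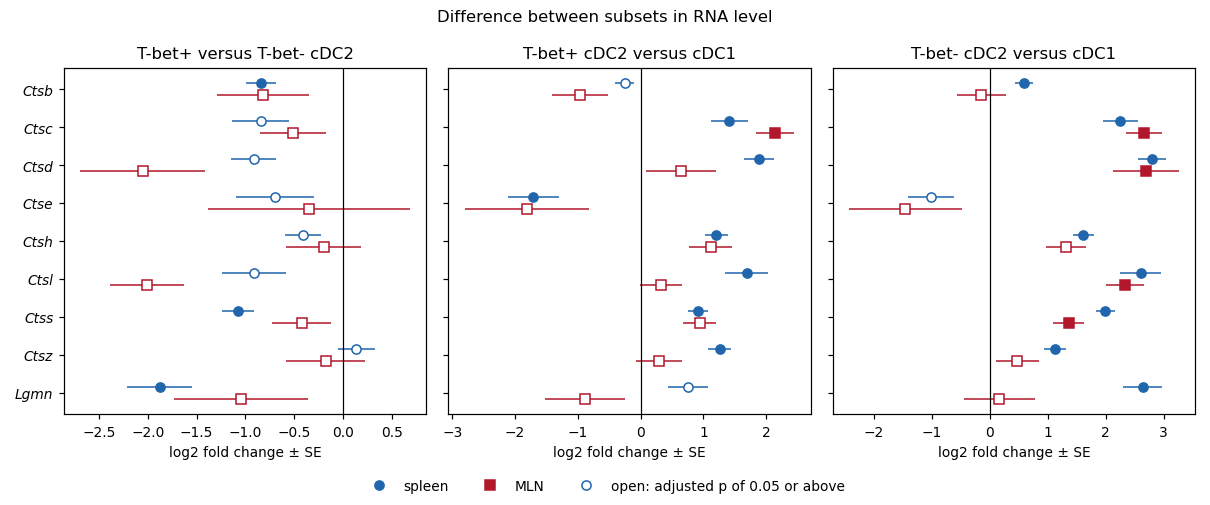
log2 fold change of RNA between subsets for the 9 tested genes, with bars of 1 SE, in spleen (circles) and MLN (squares). Filled symbols passed an adjusted p of 0.05: 3, 7 and 8 genes in spleen and 0, 1 and 4 in MLN, from left to right.

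MLN was compared with spleen in 1 fit of all 16 libraries, in which tissue and any difference in handling cannot be told apart. In cDC1s 3 of the 9 genes were called, all higher in MLN, beside 11.7% of all genes. *Lgmn* had 144.6, 530.0 and 453.4 CPM in MLN cDC1s against 60.97, 77.99 and 119.1 in spleen cDC1s, and was 4.45-fold higher (log2 fold change 2.15, SE 0.50, adjusted p = 0.016). *Ctsz* had 907.6, 1954 and 1758 CPM against 737.6, 577.8 and 732.5, and was 2.28-fold higher (1.19, SE 0.27, adjusted p = 0.014). *Ctsb* had 1217, 2624 and 2552 CPM against 1053, 1037 and 1293, and was 1.91-fold higher (0.94, SE 0.29, adjusted p = 0.049), with overlapping ranges.

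In each of these 3 genes MLN cDC1 replicate 1 was the lowest of its group. The same library was lowest in the summed markers of mature migratory DCs (*Ccr7*, *Fscn1*, *Cacnb3* and *Ccl22*), at 4104 CPM against 14860 and 14250, where spleen cDC1s had 1508 to 2731. In MLN T-bet+ cDC2s replicate 1 was likewise low in these markers (2856 against 10990 CPM) and in *Lgmn*. The T-bet- subset did not show this pattern. Its marker sums were 11970 to 13110 CPM in MLN and 3640 to 4921 in spleen. *Lgmn* was at 503.2 and 293.4 CPM in these MLN libraries and at 617.7, 643.2 and 292.3 in those of spleen. The part of these markers in the protease levels was not tested. Without MLN cDC1 replicate 1 the number of genes called between MLN and spleen cDC1s rose from 3 to 6, and without spleen cDC1 replicate 1 or 2, or MLN cDC1 replicate 2 or 3, it was 0. *Ctsb* was lost in 17 of 25 alternatives (adjusted p up to 0.19), among them 12 in which 1 library was left out. With the GC class as a term none of the 3 passed. *Ctsc* went the other way, at 211.6, 180.5 and 273.5 CPM in MLN cDC1s against 303.4, 509.1 and 391.2 in spleen, without passing the test in edgeR (-0.84, SE 0.29, adjusted p = 0.068). It passed in 3 of 25 alternatives: DESeq2 (0.033), no filter on low counts, and without spleen T-bet- replicate 1.

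In cDC2s no gene of the 9 differed between MLN and spleen past the threshold with edgeR or with DESeq2, beside 5.09% of all genes called by edgeR in the T-bet+ subset and 5.95% in the T-bet- subset. At an unadjusted p under 0.05 edgeR gave 1 and 2 of the 9, beside 4465 and 4108 of all 16795 genes. The difference between tissues in each of the 3 subset contrasts was tested as well. It was called for none of the 9 by edgeR, or by DESeq2. Of all genes edgeR called 0.00595% for T-bet+ against T-bet- cDC2s, 0.0893% for T-bet+ cDC2s against cDC1s and 0.0357% for T-bet- cDC2s against cDC1s. An unadjusted p under 0.05 was found for 1, 3 and 2 of the 9, beside 847, 1424 and 991 of all 16795 genes. The largest difference among the 9 was that of *Lgmn* in T-bet- cDC2s against cDC1s, whose contrast was lower in MLN by a log2 of -2.56 (SE 0.74, edgeR adjusted p = 0.4).

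Beside the proteases, 6 lists of other lysosomal genes were examined. Of 4 other cathepsins tested in spleen, *Ctsa*, a carboxypeptidase that protects lysosomal glycosidases, was higher than in cDC1s in T-bet+ cDC2s (909.9 ± 28.9 against 169.4 ± 25.2 CPM, SD, n = 3, log2 2.46, edgeR adjusted p = 1.5e-05) and T-bet- cDC2s (1213 ± 138 CPM, 2.88, adjusted p = 7.5e-06). *Ctso* was higher in T-bet+ cDC2s (1.07, adjusted p = 0.012), and *Ctsf* in T-bet- cDC2s (2.45, adjusted p = 0.038) at only 1.904 ± 1.27 against 0.3577 ± 0.135 CPM. In all, 2 of the 4 were higher in the T-bet+ subset and 3 in the T-bet- subset, and none was lower. Between the cDC2 subsets edgeR and DESeq2 called 0 of the 4, with 2 at an unadjusted p under 0.05 in edgeR, beside 2664 of all 14377 genes. In MLN *Ctsa* was again higher than in cDC1s in T-bet+ cDC2s (2.26, adjusted p = 0.014) and T-bet- cDC2s (2.88, adjusted p = 0.0063), and 2 of the 4 were higher in each.

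Inhibitors of the cysteine cathepsins moved in opposite directions. *Cst3*, the secreted cystatin C, had 18700 ± 4042 CPM in spleen cDC1s, 1577 ± 222 in the T-bet+ and 2117 ± 662 in the T-bet- subset (SD, n = 3), a log2 of -3.54 (edgeR adjusted p = 2.5e-05) and -3.10 (adjusted p = 5.1e-05) from cDC1s. *Cst7*, cystatin F, which is targeted to lysosomes, rose from 0.599 ± 0.174 CPM in cDC1s to 12.3 ± 3.14 and 18.27 ± 2.38 (4.37, adjusted p = 4.2e-05, and 4.95, adjusted p = 2.5e-05). These were 1 of 3 tested inhibitors in each direction, and between the cDC2 subsets edgeR and DESeq2 called 0, with 1 at an unadjusted p under 0.05. In MLN *Cst7* was again higher than in cDC1s in T-bet+ (3.92, adjusted p = 0.0045) and T-bet- cDC2s (4.38, adjusted p = 0.0031), as 1 of 4 tested. Lower than in cDC1s were 0 of the 4 in each with edgeR and 2 in each with DESeq2. In each, 3 of the 4 had an unadjusted p under 0.05 in edgeR, beside 3392 (T-bet+) and 3006 (T-bet-) of all 15298 genes.

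Among 18 other lysosomal hydrolases and cofactors, 3 were lower and none higher in spleen T-bet+ than in T-bet- cDC2s. *Psap*, the precursor of the saposins, had 1807 ± 189 against 12660 ± 1098 CPM (log2 -2.82, adjusted p = 4.4e-05), *Npc2*, a cholesterol carrier, 143.1 ± 12.7 against 449.6 ± 94.4 (-1.66, adjusted p = 0.0025), and *Scpep1* 194.8 ± 1.12 against 344.7 ± 71.7 (-0.83, adjusted p = 0.049). Against cDC1s 4 were higher and 8 lower in T-bet+ cDC2s, and 4 higher and 4 lower in T-bet- cDC2s. The glucuronidase *Gusb* fell in both, from 1506 ± 69.1 CPM in cDC1s to 118.7 ± 16.8 (-3.64, adjusted p = 2.9e-06) and 162.2 ± 18.4 (-3.18, adjusted p = 5.3e-06). *Psap* was lower in T-bet+ cDC2s (-3.46, adjusted p = 2.6e-06). The galactosidase *Gla* was higher in both (2.58, adjusted p = 0.00034, and 2.59, adjusted p = 0.00037), *Npc1* in T-bet+ cDC2s (2.2, adjusted p = 0.00081), and *Ifi30*, the thiol reductase of antigen processing, in T-bet- cDC2s (1.91, adjusted p = 0.00029). The medians of the 18 were -0.38 and -0.13, where the 9 proteases were at 1.21 and 1.99. Since genes and lists were chosen with earlier results of these data known, this contrast is a description only.

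**Figure D5:**
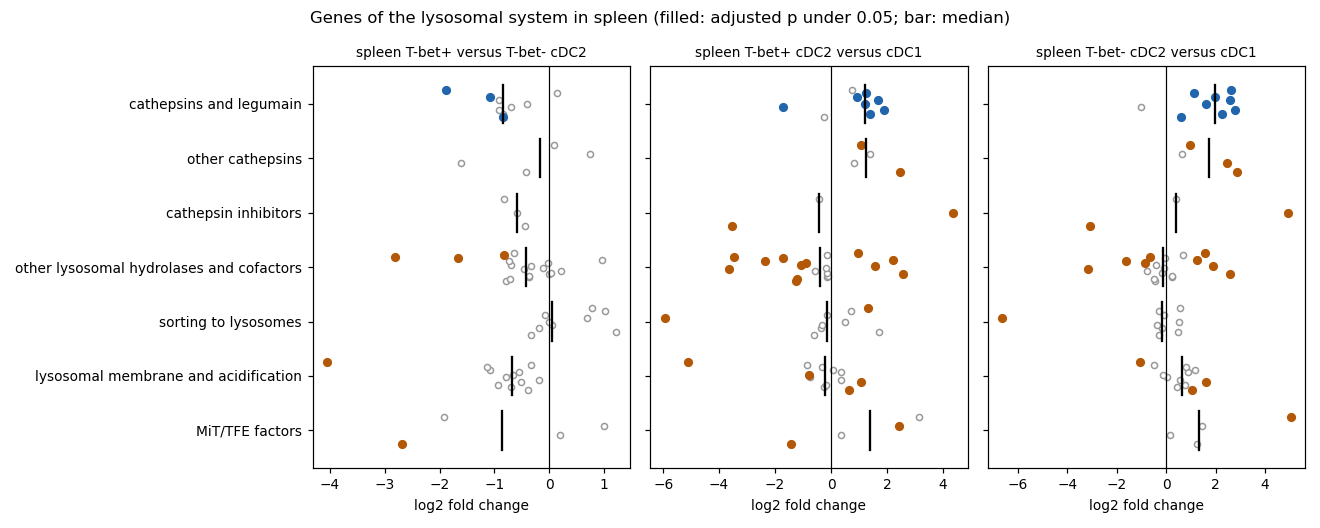
log2 fold change of the 9 tested cathepsins and legumain and of 6 lists of lysosomal genes in spleen, with 1 point per gene and a bar at the median, for the 3 subset comparisons. Filled points passed an adjusted p of 0.05. Against cDC1s 6 and 8 proteases were higher, while the 18 hydrolases and cofactors had 4 higher and 8 lower, and 4 higher and 4 lower.

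Of 9 genes that sort proteins to lysosomes, edgeR and DESeq2 called 0 between the spleen cDC2 subsets, with 1 at an unadjusted p under 0.05. The mannose-6-phosphate receptor *Igf2r* was lower than in cDC1s in T-bet+ cDC2s (0.2678 ± 0.234 against 16.92 ± 5.90 CPM, log2 -5.94, adjusted p = 0.0009) and T-bet- cDC2s (0.1587 ± 0.138 CPM, -6.64, adjusted p = 0.00071), and *Sort1* was higher in T-bet+ cDC2s (1.34, adjusted p = 0.017). Of 12 genes of the lysosomal membrane and its proton pump, edgeR called 1 lower in the spleen T-bet+ than in the T-bet- subset, and DESeq2 4. The edgeR call was *Slc11a1*, a divalent metal transporter, at 9.965 ± 0.498 against 164.5 ± 15.6 CPM (-4.05, adjusted p = 3.2e-05) and 349.5 ± 26.9 in cDC1s. The pump genes *Atp6v0c* and *Atp6ap1* were higher than in cDC1s in T-bet+ cDC2s (1.08, adjusted p = 0.011, and 0.64, adjusted p = 0.023) and T-bet- cDC2s (1.60, adjusted p = 0.0015, and 1.03, adjusted p = 0.0022). With *Atp6v1b2* and *Slc11a1* lower in T-bet+ cDC2s and *Slc11a1* lower in T-bet- cDC2s, the counts were 2 higher and 2 lower, and 2 higher and 1 lower.

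All 4 MiT/TFE factors were tested. *Tfeb* had 294.5 ± 34.4 CPM in spleen T-bet+ cDC2s against 55.25 ± 28.9 in cDC1s (log2 2.43, adjusted p = 0.023), *Mitf* 0.731 ± 0.213 against 2.052 ± 0.748 (-1.44, adjusted p = 0.047), and *Tfec* 4.13 ± 2.62 in T-bet- cDC2s against 0.1349 ± 0.234 (5.05, adjusted p = 0.027). *Mitf* was also lower in the T-bet+ than in the T-bet- subset (-2.68, adjusted p = 0.0091). In MLN *Tfeb* was higher than in cDC1s in T-bet+ (2.09, adjusted p = 0.022) and T-bet- cDC2s (2.06, adjusted p = 0.024), and in the latter *Tfec* too (5.07, adjusted p = 0.026), as 1 and 3 of the 4.

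The 9 patterns were searched on both strands of the 102 windows, of all 177956 windows, and of RefSeq promoters (250 bases before to 50 after each start). Promoter entries were matched for 7 of the 10 genes, with 8 entries. The PU.1 pattern GAGGAAG was in 20 of the 102 windows (19.6%), beside 13.2% of all windows, and AANNGAAA in 23 (22.5%), beside 16.8%. AP-1 (TGANTCA) was in 15 (14.7%, beside 7.9%), C/EBP (TTGCNNAA) in 11 (10.8%, beside 5.89%), and Runx (TGTGGTT) in 4 (3.92%, beside 5.23%). The T-box pattern AGGTGTNA and TAGGTCA were in 2 windows each (1.96%), beside 1.92% and 1.57%. Since windows of 1 peak share bases, these shares are descriptions of the letters and carry no test.

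The E-box CACGTG was in 4 of the 102 windows (3.92%, beside 2.88% of all windows), and in 3 of the 8 promoter entries, where 7.15% of all 32851 promoters hold it. The longer CLEAR element TCACGTGA was in 1 window, that of the *Ctsb* start, beside 0.217% of all windows, and in 1 promoter entry, that of *Ctsd*, beside 0.974%. Each CLEAR element or E-box at a start is shown with its flanks, since these are the letters that MiT/TFE factors read, on the strand of the gene and with the pattern in capitals. Distances are from the GENCODE start of the gene. The *Ctsd*, *Ctsl* and *Lgmn* sites come from RefSeq promoters, whose starts differ, and all lie before those starts. Counted from there, the matches begin at -99 (CLEAR) and -245 (E-box) at *Ctsd*, -236 at *Ctsl* and -49 at *Lgmn*.

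Ctsb, 18 bases upstream (chr14:63122430-63122459): gcggtcaagcaTCACGTGAcgaatcagccc
Ctsd, 116 bases downstream (chr7:142387908-142387937): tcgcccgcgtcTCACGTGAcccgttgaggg
Ctsd, 31 bases upstream (chr7:142388055-142388084): tcttccttccccCACGTGacctgtatccag
Ctsl, 137 bases downstream (chr13:64370739-64370768): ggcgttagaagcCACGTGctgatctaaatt
Lgmn, 675 bases downstream (chr12:102439124-102439153): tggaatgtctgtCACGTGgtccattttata

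The last of these lies at the start of a second RefSeq entry of *Lgmn*. The window set used here has none at the *Ctsd*, *Ctsl* or *Lgmn* start.

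Across the 16 libraries the 10 genes did not vary as 1 block. As a description over log2(CPM + 1), with libraries of one subset and tissue not independent, *Ctsd* varied most closely with *Ctsl* (Pearson r = 0.924) and *Ctsh* (0.909), and *Ctsh* with *Ctss* (0.905). *Ctsb* ran with *Lgmn* (0.823) and not with *Ctsc* (-0.119), and *Ctse* was opposed to *Ctsz* (-0.877). Among 11090 genes with a mean of at least 50 normalised counts, the genes most like *Ctss* were *Il1rn* (0.987), *Ccl9* (0.982) and *Nxpe4* (0.967). Those most like *Ctsh* were *Tmem176a* (0.979), *Tmem176b* (0.977) and *H2-M2* (0.968). For *Ctsz* they were *Rogdi* (0.985), *Mapk3* (0.975) and *Mif4gd* (0.971), and for *Ctsc* *Sulf2* (0.961), *Pcyt1a* (0.958) and *Igsf6* (0.956). *Ctsd* was most like *Alas1* (0.958) and *Ctps2* (0.95), and *Ctsl* most like *Pld3* (0.93), *Ctsd* (0.924) and *Ly6i* (0.923). The closest to *Ctse* were *Cd3eap* (0.947), *Dnajc11* (0.94) and *Ruvbl1* (0.938). *Ctsb* was close to *Cnppd1* (0.94) and *Capn5* (0.916), and *Lgmn* most like *Anxa5* (0.919), *Fuom* (0.913) and *Ubxn8* (0.908).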

How the data were processed

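Bulk RNA-seq (16 libraries of 3 sorted dendritic cell subsets from spleen or mesenteric lymph node, MLN) and ATAC-seq (6 spleen libraries) were used. The deposited gene table holds counts of uniquely mapped reads, which the authors aligned to mm10 (GRCm38) with HISAT2 2.1.0 after SMARTer amplification and counted per GENCODE gene with Rsubread, the strand setting being not given in the sources used here. The deposited ATAC tables hold read counts in windows and peaks, for which the authors aligned reads with Bowtie2 2.2.5, shifted them for the transposase and ran MACS2 2.1.1.20160309 on all replicates together, keeping peaks reproducible between replicates, so subsets share 1 window set. In the deposited position files the score column is 0 throughout for peaks, and the authors' MACS2 value of each summit (read as a -log10 p) was not used. Versions are those of the submitters' processing notes.

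The 10 genes and all lists were chosen with earlier results of these data known. Counts were tested with edgeR 4.0.16 in R 4.3.3 (TMM normalisation, filterByExpr, quasi-likelihood F test, Benjamini-Hochberg adjustment over all features) in 1 fit for spleen (9 libraries), 1 for MLN (7), 1 for both (16) and 1 for ATAC (6). RNA was called at an adjusted p under 0.05, and windows at under 0.01 with a log2 fold change over 0.5 in size. The standard error is the log2 fold change divided by the square root of F. Fold changes are fitted and can differ slightly from ratios of mean CPM. ATAC levels are TMM-normalised CPM of window counts. Windows went to the closest gene within 50000 bases (GENCODE M21, GRCm38). Named were all 10 genes; of each list up to 3 called genes per direction between spleen cDC2 subsets and up to 2 in other comparisons; the 2 called windows with the largest change per locus and comparison, and the highest window within 2000 bases of each start; and the 3 genes most like each protease. Some genes that this rule names are not reported here. The analysis was tested on simulated data. Alternatives were DESeq2 1.42.0, other scalings, filters and fits, a replicate block, a GC class of libraries, other window assignments, and each library left out. The replicate numbers are not said to mark shared animals or days. Library totals were 20993220 to 29006549 (RNA) and 7270164 to 10081555 (ATAC). The p-values measure the spread between libraries, which for RNA were of pooled mice. 1 sentence of the study's methods gives the RFP sorts in reverse, and the sample labels were followed, under which spleen T-bet+ libraries hold the higher *Tbx21* RNA.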

Additional observations from a re-analysis of the deposited data

How the results depend on the processing

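Of the 9 tested proteases, *Ctss* kept its call in all 17 alternatives in each spleen comparison, as did *Ctsc*, *Ctsd*, *Ctsh*, *Ctsl* and *Ctsz* against cDC1s and *Lgmn* in T-bet- cDC2s against cDC1s. Apart from leaving out libraries, 820 of 892 values of single genes and windows kept their direction and side of the threshold, 39 lost a call, 22 gained one and 11 reversed. The replicate numbers were not taken to pair the libraries, since no source says what they share: deviations of same-numbered libraries of different subsets correlated at -0.488 to 0.17 in spleen, -0.088 to 0.411 in MLN (0.036 to 0.411 by library name) and -0.037 to 0.019 in ATAC, and not every library correlated best with its own number.

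Counts of genes called moved as follows. Between spleen cDC2 subsets 3 became 1 with the replicate block. Between MLN cDC2 subsets 0 became 2 with DESeq2, 2 with no filter on low counts and 1 with a replicate block by library name. For MLN T-bet+ cDC2s against cDC1s 1 became 3 with DESeq2, 2 with library size only, 2 with no filter, 5 with a replicate block by library name and 0 with a GC class set within MLN, an alternative chosen after seeing the data. For MLN T-bet- cDC2s against cDC1s 4 became 2 with the replicate block. For MLN against spleen cDC1s 3 became 5 with no filter, 1 with only the compared libraries and 0 with the GC class as a term. The tissue differences of both contrasts with cDC1s went from 0 to 1 with no filter. Windows called between spleen cDC2 subsets went from 5 to 10 at an adjusted p under 0.05 with no fold limit, 1 with DESeq2, 3 with the replicate block and 3 when assigned by gene body with 10000 bases on either side. For T-bet- cDC2s against cDC1s they went from 24 to 41 at the looser threshold and 13 with DESeq2. The cause was not tested in any of these.

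With 1 library left out in turn, the counts ranged from 1 to 4 (spleen cDC2 subsets), 1 to 4 (MLN T-bet- cDC2s against cDC1s) and 0 to 6 (MLN against spleen cDC1s) for genes, and from 1 to 5 (cDC2 subsets) and 13 to 29 (T-bet- cDC2s against cDC1s) for windows. Between the spleen cDC2 subsets 1 gene was left without any 1 of the 3 T-bet+ libraries. Without MLN T-bet- replicate 1 the count against cDC1s was 1, and 2 without T-bet- replicate 2 or cDC1 replicate 3. For windows, the counts were 1 without T-bet+ replicate 1 or T-bet- replicate 2 and 2 without T-bet- replicate 1 between the cDC2 subsets, and 13 without cDC1 replicate 2 and 14 without T-bet- replicate 2 against cDC1s.

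Reversals concerned log2 fold changes that were not called. Between MLN cDC2 subsets *Ctsh* was 0.083 and *Ctsz* 0.166 with a replicate block by library name, and *Ctsz* 0.034 with the GC class within MLN. In MLN T-bet- cDC2s against cDC1s *Ctsb* was 0.096 with the replicate block and *Lgmn* -0.218 with that by library name. For MLN against spleen, T-bet+ cDC2s had *Ctsb* at -0.009, *Ctss* at -0.035 and *Lgmn* at -0.448 with the GC class and *Ctsc* at 0.065 with library size only, and T-bet- cDC2s had *Ctsb* at -0.001 with a replicate block by library name and *Ctsl* at -0.011 with the replicate block. Leaving out 1 library gave -0.012 to 0.331 for *Ctsz* between spleen cDC2 subsets, and between those of MLN -1.479 to 0.571 for *Ctse*, -0.516 to 0.137 for *Ctsh* and -0.449 to 0.125 for *Ctsz*. It gave -0.087 to 0.667 for *Ctsl* in MLN T-bet+ cDC2s against cDC1s, and -0.585 to 0.16 for *Ctsb* and -0.333 to 0.5 for *Lgmn* in MLN T-bet- cDC2s against cDC1s. For MLN against spleen it gave -0.214 to 0.532 for *Ctsb*, -0.324 to 0.032 for *Ctsc*, -0.112 to 0.478 for *Ctsz* and -0.54 to 1.09 for *Lgmn* in T-bet+ cDC2s, and -0.242 to 0.449 for *Ctsb* and -0.156 to 0.403 for *Ctsl* in T-bet- cDC2s.

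With 2 MLN libraries of each cDC2 subset and 2 ATAC libraries of each subset, leaving 1 out assumes that the lone library varies like the other groups. *Ctsk* and windows of few reads were at the limit of the depth.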
